A study of Mus musculus with 9 samples.

Results

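The genes described here encode small actin-binding proteins, cytoplasmic actins, tubulins and a tubulin-binding protein, and number 10 of the 31053 genes listed. They were taken by gene symbol and comprised Tmsb4x, Tmsb10, Pfn1, Cfl1, Actb, Actg1, Tuba1a, Tuba1b, Tubb5 and Stmn1. They were chosen with their behaviour between these groups already known, so their group differences are given as a description. RNA of single nuclei was sequenced with 10x Genomics chemistry from the 3′ end, and each molecule counted once by its unique molecular identifier (UMI), in pooled cortex and hippocampus from 9 wild-type male C57BL/6 mice, 1 library per mouse. Young mice received AAV-EGFP, and aged mice received AAV-EGFP or AAV-B3GNT3, with 3 mice per group. The paper states that aged mice came from the National Institute on Aging colony and young mice from Jackson Laboratories. Age and source of the mice thus cannot be told apart. All mice carried an adeno-associated virus (AAV), given behind the eye 8 weeks before tissue was taken. The viral capsid targets brain vessels, and the promoter, a short form of that of Cldn5, is active in endothelial cells. The control virus carried EGFP, a fluorescent protein. The other virus carried B3GNT3, a glycosyltransferase that lengthens O-glycans of mucins, so the transgene was directed to endothelial cells while the 10 genes were measured in every class of nuclei. No young mice with AAV-B3GNT3 were among the samples, and no group without virus.

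Actin polymerizes from monomers into filaments that shape the cell cortex, dendritic spines and the processes of glia. Thymosins hold actin monomers in reserve, profilin feeds monomers to growing filament ends and cofilin severs old filaments. Microtubules are built from alpha-tubulin and beta-tubulin dimers, carry transport along axons and oligodendrocyte processes, and are destabilized by stathmin. These genes are used by nearly every cell and produce abundant mature mRNA in the cytoplasm, of which a nucleus holds only a part.

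The genes were short. On the mouse genome GRCm38 they spanned 1402 bases (Tmsb10) to 5524 bases (Stmn1), while the median span of genes tested was 24891 bases in excitatory neurons and 63385.5 bases in brain endothelial cells. Tmsb4x lies at chrX:167207093-167209315 and Tmsb10 at chr6:72957347-72958748, both on the minus strand. The 2 thymosin coding sequences are shown because both genes have coding regions of 135 bases and can be read side by side, and they matched at 95 positions without gaps, with capitals marking the bases that differ.
Tmsb4x: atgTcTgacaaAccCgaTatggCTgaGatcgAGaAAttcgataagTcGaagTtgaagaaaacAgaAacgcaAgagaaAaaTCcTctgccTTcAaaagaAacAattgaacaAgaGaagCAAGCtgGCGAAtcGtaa
Tmsb10: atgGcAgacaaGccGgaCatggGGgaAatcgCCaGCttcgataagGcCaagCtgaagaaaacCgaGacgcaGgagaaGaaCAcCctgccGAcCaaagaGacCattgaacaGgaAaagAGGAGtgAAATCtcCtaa

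Other members were closer to each other. The coding sequences of Tuba1a (chr15:98949837-98953703) and Tuba1b (chr15:98931425-98934565) were identical at 98.3% of 1356 bases, and those of Actb (chr5:142903115-142906754) and Actg1 (chr11:120345690-120348542) at 88.7% of 1128 bases. The 3′ ends, from which the reads come, were not compared, so how far reads were shared between Tuba1a and Tuba1b, or with processed copies elsewhere in the genome, was not tested. Cfl1 (chr19:5490455-5495201) overlaps Snx32 on the other strand. Pfn1 lies at chr11:70651850-70654644, Tubb5 at chr17:35833921-35838306 and Stmn1 at chr4:134468320-134473843.

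Promoters of 8 members were in the RefSeq table for GRCm38, each running from 250 bases before to 50 after the start. Those of Actb and Stmn1 were not found there and were not searched for motifs. All 8 held GGGCGG on either strand, as did 35.7% of 32851 promoters. None of the 8 held TATAAA, which 13.6% of promoters held. The CArG box (CC, then 6 bases of A or T, then GG), the sequence that serum response factor binds, was found in Actg1 alone among the 8 and in 1.63% of all promoters. Part of the Actg1 promoter, chr11:120348556-120348745 on the minus strand, is shown because it holds this box, with the CArG box and GGGCGG matches (some overlapping) in capitals.
Actg1: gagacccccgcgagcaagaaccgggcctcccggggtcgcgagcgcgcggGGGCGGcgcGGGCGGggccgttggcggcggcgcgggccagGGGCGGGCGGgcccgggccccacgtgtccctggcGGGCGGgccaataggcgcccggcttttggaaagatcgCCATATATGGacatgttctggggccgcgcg

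Library totals were 47332047 to 79964605 UMIs. Of 77823 barcodes, 70434 were kept as nuclei and 65443 fell into clusters named from marker genes, with 734 barcode sequences occurring in more than 1 library. The 9 classes with at least 10 nuclei in every library were analysed, from 747 brain endothelial cells (BECs, 51 to 118 per library) to 20384 oligodendrocytes. The markers of each class were highest in that class for all marker genes except 1 of 6 in pericytes (Rgs5), which was higher in another class. The same lists had named the clusters, so this does not test the names. Endogenous B3gnt3 gave 0, 2 and 4 UMIs in BECs of the 3 aged AAV-B3GNT3 libraries, 0 in each aged AAV-EGFP library and 7, 3 and 1 in the young libraries. The transgene was not among the listed genes, so these counts do not check the labels. Levels are given in CPM, the number of a gene's UMIs in 1000000 UMIs of the same class and library after TMM scaling, and they measure shares of a nucleus's RNA. Less RNA per cell and fewer cells that express a gene cannot be told apart in such sums.

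In young mice, BECs had the highest mean level of 8 of the 10 genes, and a neuron class had the lowest level of all 10. Actb, the main cytoplasmic actin, was at 659 ± 72.5 CPM (SD, n = 3) in young BECs, 296 ± 31.4 in pericytes, 222 ± 23.1 in microglia and 184 ± 29.0 in oligodendrocytes. It was at 59.2 ± 6.61 CPM in excitatory and 62.6 ± 5.37 in inhibitory neurons, whose libraries overlapped. BEC libraries lay above pericyte libraries, and pericyte above microglia, without overlap, whereas microglia overlapped with oligodendrocytes. Tmsb4x had a second high class besides BECs. It was at 319 ± 112 CPM in young BECs and 222 ± 19.6 in microglia, without overlap, and no other class had a mean above 91.7.

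Stmn1 and Pfn1 departed from the endothelial order. Stmn1 was highest in oligodendrocytes, at 122 ± 15.6 CPM, and no library of another class reached it. The next 4 classes (microglia, BECs, pericytes and excitatory neurons) had means of 38.2 to 42.4 CPM and overlapped. Pfn1 stood at 43.9 ± 11.97 CPM in microglia and 43.3 ± 11.95 in BECs, which overlapped, ahead of pericytes at 22.1 ± 5.46. Over all 9 libraries BECs were highest for 9 of 10 genes, and the lowest class was excitatory neurons for 6 and inhibitory neurons for 4. These are shares of unequal totals. Mean totals were 11416 UMIs per excitatory neuron and 2492 per BEC, and Actb averaged 0.704 UMIs per excitatory neuron against 1.78 per BEC.

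In oligodendrocytes, the myelin-forming cells, all 10 genes were higher in aged AAV-EGFP than in young AAV-EGFP mice and lower in aged AAV-B3GNT3 than in aged AAV-EGFP mice. In each of the 10, the 3 aged AAV-EGFP libraries lay above all libraries of the other groups. The ageing and treatment comparisons share the aged AAV-EGFP libraries, so the opposite signs are not separate observations. All 10 were called in each comparison (edgeR quasi-likelihood test, adjusted p under 0.05), where 11.1% of the 13231 genes tested were called higher with age and 5.89% lower with treatment, and 19.8% and 16.1% of genes had groups that did not overlap in these directions. Since the genes were chosen for these contrasts, nothing is read from the counts. The levels of the 10 genes by library in oligodendrocytes are plotted.

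**Figure D1:**
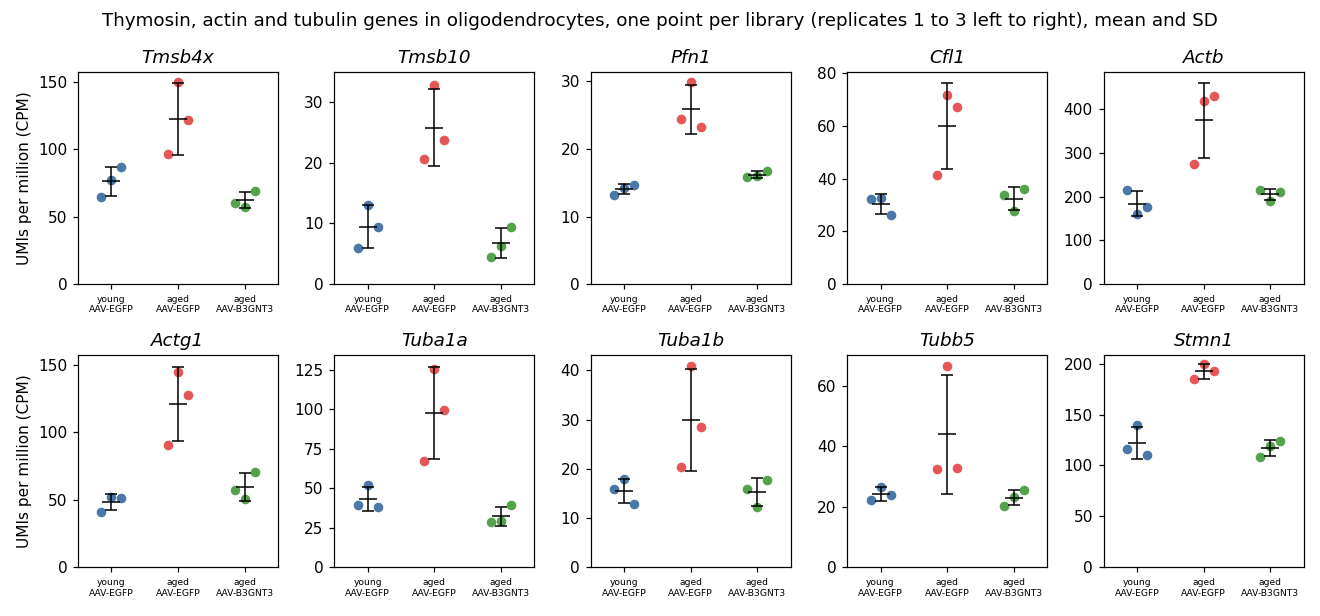
Levels of the 10 genes in oligodendrocytes, in CPM on the vertical axis of each panel, with 1 point per library, the group mean and SD (n = 3), with a colour for each of the 3 groups. All 3 aged AAV-EGFP libraries lie above the other 6 in each panel, with a lowest aged AAV-EGFP value of 96.2 CPM for Tmsb4x against a highest other value of 86.5.

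Tmsb10, a monomer-holding thymosin, had the widest change in oligodendrocytes, at 20.7, 32.8 and 23.8 CPM in aged AAV-EGFP replicates 1, 2 and 3. It was at 5.99, 12.998 and 9.38 CPM in young and at 4.56, 6.26 and 9.49 CPM in aged AAV-B3GNT3 mice. The aged AAV-EGFP libraries did not overlap with either group, and the other groups overlapped with each other. The log2 fold change was 1.46 ± 0.31 (SE) with age and -1.89 ± 0.30 with treatment, or 2.76-fold higher and 3.71-fold lower. Tmsb4x, the more studied thymosin, was at 96.2, 150 and 121 CPM in aged AAV-EGFP, 64.8, 77.5 and 86.5 in young and 60.5, 57.5 and 68.7 in aged AAV-B3GNT3 mice. Its log2 fold changes were 0.69 ± 0.17 and -0.97 ± 0.17.

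Profilin and cofilin were also highest in aged AAV-EGFP mice. Their means were higher in aged AAV-B3GNT3 than in young mice, the reverse of the thymosins. Pfn1 was at 24.4, 29.9 and 23.2 CPM in aged AAV-EGFP, 13.2, 14.2 and 14.7 in young and 15.9, 16.0 and 16.7 in aged AAV-B3GNT3 oligodendrocytes. Cfl1 was at 41.3, 71.7 and 67.0 CPM in aged AAV-EGFP, 32.4, 32.5 and 26.1 in young and 33.7, 27.6 and 35.97 in aged AAV-B3GNT3 oligodendrocytes. For Pfn1 the aged AAV-B3GNT3 libraries were also above all young libraries, while for Cfl1 these groups overlapped. The changes were 0.88 ± 0.17 with age and -0.67 ± 0.16 with treatment for Pfn1, and 0.98 ± 0.20 and -0.89 ± 0.20 for Cfl1 (log2, SE).

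Both actins changed in oligodendrocytes. Actb was at 276, 419 and 430 CPM in aged AAV-EGFP, 216, 160 and 177 in young and 216, 190 and 210 in aged AAV-B3GNT3 mice. Actg1, the gamma cytoplasmic actin, was at 90.6, 145 and 127 CPM in aged AAV-EGFP, 41.4, 52.2 and 51.6 in young and 57.3, 50.9 and 70.5 in aged AAV-B3GNT3 mice. For both genes aged AAV-EGFP replicate 1 was the lowest of its group and still above the other 6 libraries. The log2 fold changes were 1.03 ± 0.17 and -0.87 ± 0.17 for Actb and 1.33 ± 0.18 and -1.02 ± 0.18 for Actg1.

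Among the tubulins, Tuba1a, an alpha-tubulin of developing neurons and other cells, was at 67.6, 125 and 99.7 CPM in aged AAV-EGFP, 39.6, 52.0 and 38.1 in young and 28.5, 29.3 and 39.3 in aged AAV-B3GNT3 oligodendrocytes. Its log2 fold changes were 1.17 ± 0.22 and -1.59 ± 0.22. Tubb5, a widely used beta-tubulin, was at 32.6, 66.4 and 32.7 CPM in aged AAV-EGFP, 22.4, 26.7 and 23.8 in young and 20.4, 23.4 and 25.4 in aged AAV-B3GNT3 oligodendrocytes. Replicate 2 of aged AAV-EGFP stood well above the other 2 for Tubb5 and was also the highest for Tuba1a. Tuba1b, a second alpha-tubulin, was at 20.4, 40.9 and 28.6 CPM in aged AAV-EGFP, 15.9, 17.9 and 12.9 in young and 15.9, 12.3 and 17.8 in aged AAV-B3GNT3 oligodendrocytes. Stmn1, which releases tubulin from microtubules, was the most even, at 185, 199 and 192 CPM in aged AAV-EGFP, 117, 140 and 110 in young and 108, 119 and 124 in aged AAV-B3GNT3 mice. Stmn1 had the smallest age change of the 10 in this class, 0.65 ± 0.12 on the log2 scale.

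Oligodendrocytes of the groups also lay in different clusters. At a finer resolution, with the members and related genes left out of the clustering, the class fell into 4 clusters. Of its nuclei, 39.3 to 57.1% lay in 1 of these (numbered 1) in aged AAV-EGFP libraries, 3.15 to 5.49% in young and 4.72 to 21.5% in aged AAV-B3GNT3 libraries. In another (numbered 2) these shares were 2.74 to 15.4%, 39.2 to 49.8% and 28.1 to 35.2%. Within each cluster, the mean of aged AAV-EGFP libraries was above that of each other group for 10 of 10 genes. The libraries were apart from young in 30 of 40 gene and cluster pairs and from aged AAV-B3GNT3 in 29, where 12.3% and 7.84% of 38577 gene and cluster pairs passing the filter were apart in these directions. The median log2 difference of group means was 0.60 with age in the first of these clusters and 1.11 in the second, and -0.81 and -0.94 with treatment. For Tmsb10 the first held 20.8, 36.2 and 27.0 CPM in aged AAV-EGFP libraries, where 73 to 76 young nuclei per library gave 1, 1 and 0 UMIs. Aged AAV-B3GNT3 libraries gave 8, 0 and 14 UMIs there, or 9.72, 0 and 11.3 CPM. Tmsb10 passed the filter on low counts in this cluster only through the aged AAV-EGFP libraries, so a difference was built in. Pairs that passed in this way were not taken out of the counts of 30 and 29. These within-cluster values were added after the data were seen and were not tested.

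The call counts in oligodendrocytes moved with single libraries. Without aged AAV-EGFP replicate 2, 7 of 10 were called with age and 6 with treatment. Without aged AAV-B3GNT3 replicate 1, 6 were called with treatment, and without replicate 2 of that group, 3. With estimated free RNA (RNA released from other cells, 13.1 to 27.9% of UMIs in this class) subtracted, 6 were called in each comparison. Outside neurons the estimate was the share of excitatory neuron markers in a class divided by their share in all barcodes of the library. For neurons, oligodendrocyte markers were used. Doublets and the mix of cells in a library can enter this estimate too. The estimate moved with the groups, with means of 18.0% in aged AAV-EGFP, 26.3% in young and 23.3% in aged AAV-B3GNT3 oligodendrocytes. Its mean was lower in aged AAV-EGFP than in young mice in 9 of 9 classes and than in aged AAV-B3GNT3 mice in 8, with no overlap of libraries in 3 and 2 classes. In excitatory neurons it was 7.59 to 10.4% in aged AAV-EGFP, 14.1 to 15.1% in young and 11.9 to 14.9% in aged AAV-B3GNT3 libraries, and its part in the members' values was not tested beyond the subtraction. The summed ependymal markers in oligodendrocytes were at 4.77 to 7.05 CPM in aged AAV-EGFP, 2.93 to 5.34 in young and 2.97 to 3.87 in aged AAV-B3GNT3 mice, with 3 of 5 and 4 of 5 higher on average and none at 0, and their part was not tested.

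In BECs, the cells to which the transgene was directed, all 10 genes were again higher with age and lower with treatment in their fitted changes. The median log2 fold changes were 1.29 and -1.29. Of the 10, 4 (Tmsb4x, Actb, Actg1 and Stmn1) were called higher with age, beside 1.64% of 4641 genes, and Tmsb4x was called lower with treatment, beside 0.409%. Stmn1, Tmsb10, Pfn1 and Tuba1b passed the filter on low counts in BECs through the aged AAV-EGFP libraries, since fewer than 3 of the other libraries reached the 51.8 CPM it asked for, so they had to be higher there. Without these 4, 3 of 6 were called with age and 1 with treatment, and the medians were 1.19 and -1.15. Stmn1 rests on 15 to 17 UMIs in each aged AAV-EGFP BEC library. The aged AAV-EGFP libraries were above all young libraries for 9 genes and above all aged AAV-B3GNT3 libraries for 8, where 9.93% and 8.3% of genes had groups apart in these directions. Both counts hold Stmn1, Pfn1 and Tuba1b, and the second also Tmsb10, for which a difference was built in by the filter. Leaving out aged AAV-EGFP replicate 1 gave 7 calls with age and 6 with treatment. For age, 1 was called without aged AAV-B3GNT3 replicate 1 or 3 or young replicate 3, and 0 without any other single library (8 to 10 at an unadjusted p under 0.05). For treatment, 0 were called without any 1 of the 3 aged AAV-B3GNT3 libraries (7 to 9 unadjusted). After free RNA was subtracted, edgeR called 0 of 10 in each comparison, with 8 and 7 at an unadjusted p under 0.05, and DESeq2 without subtraction called 3 and 4. Each BEC library held 142236 to 315144 UMIs, so single values rest on few molecules. The levels by library in BECs are plotted.

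**Figure D2:**
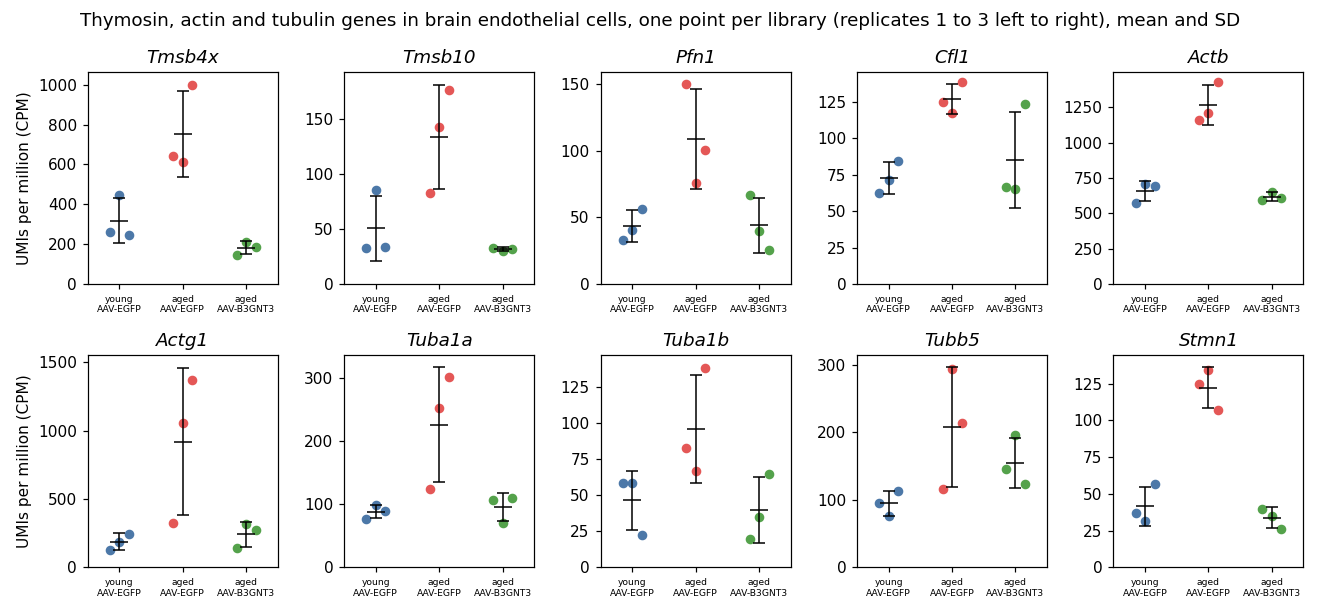
Levels of the 10 genes in BECs, in CPM on the vertical axis, with 1 point per library, the group mean and SD (n = 3). Aged AAV-EGFP libraries lie above all aged AAV-B3GNT3 libraries except for Cfl1 and Tubb5, and Actg1 ranges from 324 to 1371 CPM within the aged AAV-EGFP group.

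Actg1 had the largest fitted change of any member in any class. It was at 324, 1059 and 1371 CPM in aged AAV-EGFP, 125, 188 and 248 in young and 140, 316 and 272 in aged AAV-B3GNT3 BECs. Aged AAV-EGFP replicate 1 was close to the highest aged AAV-B3GNT3 library and far below its own group, and the log2 fold change was 2.32 ± 0.45 (SE) with age. Tmsb4x was at 640, 614 and 1000.1 CPM in aged AAV-EGFP, 260, 448 and 248 in young and 146, 211 and 188 in aged AAV-B3GNT3 BECs, with no overlap between any of the 3 groups. Its log2 fold change with treatment was -2.04 ± 0.32, or 4.11-fold lower, and with age 1.24 ± 0.30.

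Actb and Stmn1 were more even among the aged AAV-EGFP BEC libraries. Actb was at 1163, 1210 and 1428 CPM in aged AAV-EGFP, 576, 708 and 694 in young and 592, 653 and 610 in aged AAV-B3GNT3 BECs, a change of 0.94 ± 0.23 with age. Stmn1 was at 125, 134 and 107 CPM in aged AAV-EGFP, 36.7, 31.4 and 56.4 in young and 39.9, 35.2 and 25.9 in aged AAV-B3GNT3 BECs, a change of 1.56 ± 0.37. For both genes the young and aged AAV-B3GNT3 libraries overlapped. Cfl1 and Tubb5 had the smallest treatment changes in BECs, at -0.59 ± 0.34 and -0.41 ± 0.34, and 1 aged AAV-EGFP library of each lay below the highest aged AAV-B3GNT3 library.

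Markers of other classes were also present in BEC nuclei. The summed oligodendrocyte markers were at 635 to 1773 CPM in aged AAV-EGFP, 584 to 703 in aged AAV-B3GNT3 and 815 to 1021 in young BECs, and 7 of 7 were higher on average in aged AAV-EGFP than in aged AAV-B3GNT3 mice. The summed microglia markers were at 241 to 269 CPM in aged AAV-EGFP, 114 to 152 in young and 111 to 286 in aged AAV-B3GNT3 BECs, with 7 of 8 higher than in young mice. No marker of these lists was at 0, and 4 of 5 T cell markers were. The part of other cells' RNA in the BEC values was not tested beyond subtracting the free RNA estimate.

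Neurons had low levels of these genes. In excitatory neurons 7 of 10 genes were called higher with age, beside 7.48% of 16921 genes, and 3 (Tmsb10, Actg1 and Tuba1a) lower with treatment, beside 1.58%. Tmsb10 was at 8.70, 12.9 and 12.8 CPM in aged AAV-EGFP, 4.57, 4.93 and 4.70 in young and 3.46, 3.51 and 4.88 in aged AAV-B3GNT3 excitatory neurons. Its log2 fold changes were 1.28 ± 0.19 (SE) with age and -1.53 ± 0.20 with treatment, the largest of the class in both. Tuba1a was at 16.9, 21.6 and 21.2 CPM in aged AAV-EGFP, 8.63, 10.6 and 10.5 in young and 7.34, 8.86 and 11.1 in aged AAV-B3GNT3 excitatory neurons. Tmsb10 and Tuba1a libraries of aged AAV-EGFP mice were above all others.

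Actb and Pfn1 overlapped between groups in excitatory neurons. Actb was at 58.9, 68.5 and 77.8 CPM in aged AAV-EGFP, 64.4, 51.7 and 61.4 in young and 56.2, 61.8 and 54.5 in aged AAV-B3GNT3 mice. These groups overlapped, and the changes were 0.21 ± 0.12 and -0.25 ± 0.12. Pfn1 had changes of 0.32 ± 0.18 and -0.18 ± 0.18. Stmn1 was at 54.9, 67.4 and 72.6 CPM in aged AAV-EGFP and at 39.96, 37.8 and 36.7 in young excitatory neurons, which did not overlap. The aged AAV-B3GNT3 libraries of Stmn1 were at 51.0, 39.1 and 56.0 CPM, with 1 of them inside the aged AAV-EGFP range. Without aged AAV-EGFP replicate 2 or replicate 3, 3 of 10 were called with age in this class. Without young replicates 1, 2 and 3, the calls with age were 4, 3 and 2. For treatment, edgeR called 0 of 10 without aged AAV-EGFP replicate 2, without aged AAV-B3GNT3 replicate 1 or without aged AAV-B3GNT3 replicate 2, with 7 or 8 at an unadjusted p under 0.05 in each case. It called 8 without aged AAV-EGFP replicate 1 and 5 without aged AAV-B3GNT3 replicate 3, and 2 without aged AAV-EGFP replicate 3, young replicate 2 or young replicate 3. DESeq2 called 5 on all libraries.

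The inhibitory class joined a cluster led by Sh3rf2 and Drd2 (3683 nuclei, 138 to 646 per library) and another led by Kcnmb2 and Kcnip1 (4401 nuclei, 347 to 748). The part of this mix in the class values was not tested. In inhibitory neurons 1 of 10 genes, Tmsb10, was called in each comparison, beside 2.08% and 0.494% of 14386 genes. It was at 8.56, 10.1 and 11.8 CPM in aged AAV-EGFP, 4.09, 5.24 and 3.93 in young and 3.28, 4.21 and 5.06 in aged AAV-B3GNT3 inhibitory neurons. The lowest aged AAV-EGFP library was above the highest of the other groups. Without aged AAV-EGFP replicate 1, 5 were called with age and 3 with treatment. For age, 2 were called without young replicate 2 or without aged AAV-B3GNT3 replicate 1 or 3, and 0 (4 to 8 at an unadjusted p under 0.05) without aged AAV-EGFP replicate 2 or 3 or young replicate 1 or 3. For treatment, 3 were called without aged AAV-B3GNT3 replicate 3, and 0 (3 to 6 unadjusted) without aged AAV-EGFP replicate 2 or 3, aged AAV-B3GNT3 replicate 1 or 2, or young replicate 3. DESeq2 called 3 in each comparison. The changes of the 10 ranged from 0.26 to 1.19 with age and from -1.27 to -0.23 with treatment. The summed microglia markers in inhibitory neurons were at 39.4 to 45.2 CPM in aged AAV-EGFP, 26.5 to 41.9 in young and 30.1 to 37.4 in aged AAV-B3GNT3 mice, with 6 of 8 and 5 of 8 higher on average. The astrocyte markers were at 837 to 989, 559 to 904 and 661 to 783 CPM, with 2 of 7 and 1 of 7 higher. No marker of either list was at 0 in inhibitory neurons, and their part was not tested. At a finer resolution the neurons formed 10 clusters, 7 of them excitatory and 3 inhibitory. The mean of aged AAV-EGFP libraries was above that of young libraries in 97 of 100 gene and cluster pairs, and above that of aged AAV-B3GNT3 libraries in 91. In 49 of the pairs the aged AAV-EGFP libraries lay above all young libraries, and in 26 above all aged AAV-B3GNT3 libraries. Of the 93 pairs that passed the filter 47 and 22 were apart in this way, beside 12.3% and 5.51% of 113712 gene and cluster pairs. Any pairs that passed only through the aged AAV-EGFP libraries were not taken out of these counts. In the excitatory cluster led by Dsp and Chst9 the mean was above that of aged AAV-B3GNT3 libraries for 5 of 10 genes. Actg1, Stmn1, Tmsb10, Tmsb4x and Tuba1a were higher in all 10 clusters against both groups, and Pfn1 in 8 and 7.

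In astrocytes, which take up transmitter and contact vessels, 4 genes (Cfl1, Actb, Actg1 and Stmn1) were called higher with age, beside 4.73% of 12635 genes, and 8 lower with treatment, beside 2.56%. Actg1 was at 70.5, 114 and 71.3 CPM in aged AAV-EGFP, 43.4, 49.4 and 43.7 in young and 30.7, 37.0 and 44.0 in aged AAV-B3GNT3 astrocytes. Tuba1a was at 37.8, 52.1 and 34.6 CPM in aged AAV-EGFP, 20.9, 29.0 and 22.2 in young and 8.65, 18.3 and 21.2 in aged AAV-B3GNT3 astrocytes. Both genes kept aged AAV-EGFP apart from the other groups, and replicate 2 was its highest library. The treatment changes were -1.21 ± 0.20 (SE) and -1.39 ± 0.27. The summed pericyte markers in astrocytes were at 208 to 245 CPM in aged AAV-EGFP, 150 to 181 in young and 203 to 238 in aged AAV-B3GNT3 mice, with 5 of 6 higher than in young mice. The smooth muscle markers were at 5.07 to 7.33, 2.73 to 3.53 and 2.96 to 15.8 CPM, with 4 of 5 higher than in young mice. No marker of either list was at 0 in astrocytes, and their part was not tested. For treatment edgeR called 0 of 10 in astrocytes without aged AAV-EGFP replicate 2 or without aged AAV-B3GNT3 replicate 2 (unadjusted p under 0.05 in 8 and 9), and 2 when aged AAV-B3GNT3 replicate 1 was left out. With age, 2 were called without aged AAV-EGFP replicate 2 or without young replicate 3. With free RNA subtracted, edgeR called 0 of 10 in each comparison, with 6 and 9 at an unadjusted p under 0.05. DESeq2 called 6 and 9 without that subtraction.

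In microglia, the resident immune cells, 9 members could be tested, and 4 (Actb, Actg1, Tuba1a and Stmn1) were called higher with age and lower with treatment, beside 5.16% and 1.99% of 7435 genes. Tuba1a was at 64.8, 140 and 61.8 CPM in aged AAV-EGFP, 35.97, 15.04 and 20.9 in young and 16.8, 27.3 and 39.5 in aged AAV-B3GNT3 microglia. Its log2 fold changes were 1.78 ± 0.41 (SE) with age and -1.64 ± 0.37 with treatment, although replicate 2 stood far above the other aged AAV-EGFP libraries. Tubb5 was the only member with fitted changes in the other direction in any class, at -0.13 ± 0.40 and 0.06 ± 0.38. It was at 14.4, 62.0 and 34.6 CPM in aged AAV-EGFP, 48.8, 30.1 and 41.8 in young and 33.6, 39.1 and 43.9 in aged AAV-B3GNT3 microglia. The aged AAV-EGFP group held both the lowest and the highest of the 9 libraries for Tubb5. Tmsb10 did not pass the filter on low counts in microglia, where it was at 53.995, 45.7 and 17.3 CPM in aged AAV-EGFP and 7.52 to 9.77 CPM in the other 6 libraries. Without aged AAV-EGFP replicate 2, 1 member was called in each comparison in microglia, and 1 was called for treatment without aged AAV-B3GNT3 replicate 2. Of 8 members tested after free RNA was subtracted, edgeR called 0 in each comparison (4 and 5 at an unadjusted p under 0.05), and the treatment change of Actb was then -0.79 ± 0.22. DESeq2 without that subtraction called 2 and 4.

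In pericytes, the mural cells of capillaries, 6 members passed the filter, and Cfl1, Tuba1a and Stmn1 did so only through the aged AAV-EGFP libraries, so that a difference was built in. Tmsb4x, Cfl1 and Tuba1a were called higher with age, beside 2.53% of 4899 genes, and Tuba1a lower with treatment, beside 0.49%. Tmsb4x was at 229, 337 and 202 CPM in aged AAV-EGFP, 67.7, 96.9 and 110 in young and 86.9, 88.3 and 164 in aged AAV-B3GNT3 pericytes. Tuba1a was at 140, 166 and 91.7 CPM in aged AAV-EGFP, 32.1, 51.0 and 36.8 in young and 16.5, 29.4 and 64.3 in aged AAV-B3GNT3 pericytes. The aged AAV-EGFP libraries were apart from the others for both, and aged AAV-B3GNT3 replicate 3 was the nearest to them. The summed BEC markers in pericytes were at 495 to 1394 CPM in aged AAV-EGFP, 275 to 305 in young and 374 to 604 in aged AAV-B3GNT3 mice, with 4 of 7 higher than in young mice, and none at 0. The smooth muscle markers, a list that holds the actin isoform Acta2, were at 218 to 394 CPM in aged AAV-EGFP, 105 to 168 in young and 173 to 455 in aged AAV-B3GNT3 pericytes, with 5 of 5 higher than in young mice. The fibroblast markers were at 193 to 207, 160 to 189.3 and 158 to 228 CPM, with 3 of 7 higher than in young mice. No marker of these lists was at 0. The ependymal markers were at 25.4 to 73.4, 10.5 to 35.7 and 11.7 to 14.7 CPM, with 2 of 5 higher than in each and Ccdc153 and Tmem212 at 0. The part of these markers in the pericyte values was not tested. In each comparison 4 were called without aged AAV-EGFP replicate 1. With age, 0 were called in the absence of aged AAV-EGFP replicate 2 (4 by unadjusted p under 0.05) or young replicate 1 (6), and 2 without each of the other libraries. For treatment, 2 were called without aged AAV-EGFP replicate 3 or aged AAV-B3GNT3 replicate 3, and 0 (4 to 8 unadjusted) without aged AAV-EGFP replicate 2, aged AAV-B3GNT3 replicate 1 or 2, or young replicate 1. Pfn1, Tmsb10, Tuba1b and Tubb5 did not pass the filter in pericytes.

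In fibroblasts of the vessel wall and meninges, 1 member, Actg1, was called higher with age, beside 1.48% of 9131 genes, and 0 of 10 lower with treatment, beside 0.307% (edgeR, 9 at an unadjusted p under 0.05, and 2 called by DESeq2). Fibroblast Actg1 was at 73.4, 162 and 153 CPM in aged AAV-EGFP, 58.8, 72.3 and 70.4 in young and 70.0, 75.5 and 92.7 in aged AAV-B3GNT3 mice. Aged AAV-EGFP replicate 1 lay within the aged AAV-B3GNT3 range, and without it 4 members were called in each comparison. With age, Actg1 was called without aged AAV-B3GNT3 replicate 3, and no member without any other single library (4 to 8 unadjusted). For treatment, 1 member was called without aged AAV-B3GNT3 replicate 3 or without young replicate 1 or 2. The summed microglia markers in fibroblasts were at 163 to 270 CPM in aged AAV-EGFP, 54.5 to 68.4 in young and 59.3 to 157 in aged AAV-B3GNT3 mice, with 8 of 8 and 7 of 8 higher on average, and none at 0. The smooth muscle markers in fibroblasts were at 22.9 to 242 CPM in aged AAV-EGFP, 3.13 to 13.7 in young and 21.3 to 41.0 in aged AAV-B3GNT3 mice, with 4 of 5 higher than in each and none at 0. The macrophage markers were at 5.69 to 106, 0 to 6.34 and 0 to 3.38 CPM, with 3 of 5 higher and Cd163 and Ms4a7 at 0. The part of these markers was not tested. In oligodendrocyte precursors edgeR called 0 of 10 with age, beside 1.32% of 10307 genes (8 at an unadjusted p under 0.05, 0 by DESeq2), and Stmn1 lower with treatment, beside 0.213%. Stmn1 was at 50.5, 51.8 and 33.5 CPM in aged AAV-EGFP, 24.6, 31.4 and 28.3 in young and 12.6, 12.2 and 22.5 in aged AAV-B3GNT3 precursors, and no groups overlapped. In precursors 4 were called with age and 3 with treatment without aged AAV-EGFP replicate 1, and 1 with age without young replicate 1. For treatment 0 were called (4 to 9 unadjusted) without aged AAV-EGFP replicate 2, aged AAV-B3GNT3 replicate 1 or 2, or young replicate 3. The summed ependymal markers in precursors were at 2.84 to 3.31 CPM in aged AAV-EGFP, 0 to 1.97 in young and 0.873 to 2.29 in aged AAV-B3GNT3 mice, with 4 of 5 and 3 of 5 higher and Ccdc153 at 0. The BEC markers were at 9.94 to 18.2, 6.83 to 8.86 and 9.20 to 18.3 CPM, with 6 of 7 higher than in young mice and none at 0. The microglia markers in precursors were at 44.9 to 61.1, 28.6 to 54.5 and 27.5 to 43.4 CPM, with 5 of 8 higher than in each. The smooth muscle markers were at 3.55 to 5.80, 2.62 to 3.90 and 1.53 to 2.62 CPM, with 4 of 5 higher than in each, and no marker of these lists was at 0. Their part was not tested. Pfn1 and Tmsb10 passed the filter in precursors only through the aged AAV-EGFP libraries. Precursor changes ranged from 0.34 to 1.38 with age and from -1.43 to -0.50 with treatment. The upper end with age is Pfn1, and outside Pfn1 and Tmsb10 the highest was Cfl1 at 0.87.

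Over the 9 classes, 85 pairs of member and class were tested, since 5 of 90 did not pass the filter on low counts. The fitted change was above 0 with age in 84 and below 0 with treatment in 84, with medians of 0.85 and -0.89 on the log2 scale. Of the 85 pairs, 10 in BECs, pericytes, precursors and microglia (Tuba1b) would not have passed on the other 6 libraries. Among the remaining 75 the medians were 0.76 and -0.87, and 31 were called with age and 28 with treatment. Medians over all genes tested in a class were between -0.02 and 0.03. Called were 34 pairs higher with age, beside 4.8% of all gene and class pairs, and 29 lower with treatment, beside 1.8%, and no pair was called in the other direction, where 5.03% and 1.19% of gene and class pairs were. The counts depended on single libraries. Without aged AAV-EGFP replicate 2 they were 13 and 8, and without replicate 1 of that group 50 and 52. For age they were 19, 22 and 18 without young replicates 1, 2 and 3, and for treatment 13 and 4 without aged AAV-B3GNT3 replicates 1 and 2. The aged AAV-EGFP libraries lay above all young libraries in 65 pairs and above all aged AAV-B3GNT3 libraries in 62, beside 14.6% and 11.6%. Both counts are over all 85 pairs and hold some of the 10 for which the filter built in a difference. The changes of the 10 genes in each class are plotted.

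**Figure D3:**
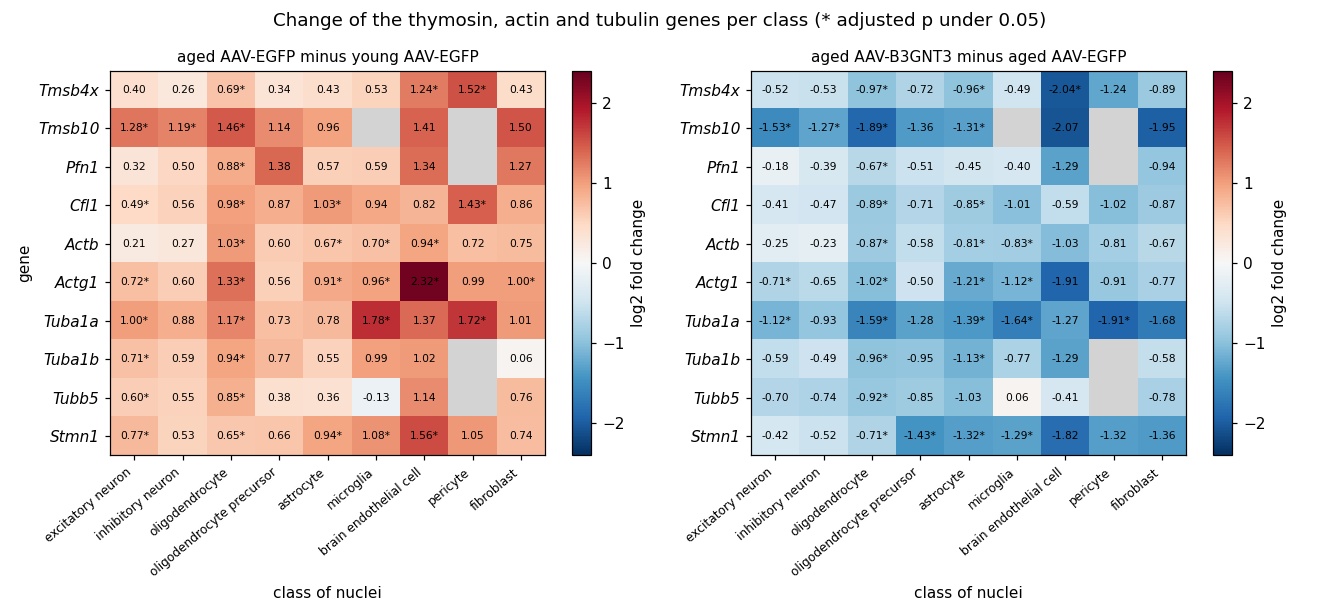
Fitted log2 fold changes of the 10 genes (vertical axis) in 9 classes of nuclei (horizontal axis), with age on the left and with treatment on the right. Asterisks mark pairs called by edgeR (adjusted p under 0.05), grey marks pairs not tested, and Tubb5 in microglia is the only pair with the opposite sign in each panel.

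The members differed in how far they moved. Tmsb10 had the largest median over classes in both directions, 1.28 with age and -1.53 with treatment over 7 classes, and its aged AAV-EGFP libraries lay above all aged AAV-B3GNT3 libraries in 7 of 7, among them BECs and precursors, where it passed the filter only through the aged AAV-EGFP libraries. Tuba1a followed, with medians of 1.01 and -1.39 over 9 classes, and kept aged AAV-EGFP apart from both groups in 9 of 9, among them pericytes, where the same holds. Tmsb4x had the smallest age median, 0.43, and was apart from young libraries in 4 of 9 classes, yet its treatment median was -0.89. Pfn1 had the smallest treatment median, -0.48 over 8 classes. These ranks were not tested against each other.

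Aged AAV-B3GNT3 and young AAV-EGFP mice, which share no libraries, were also compared. In the 85 pairs the log2 difference (aged AAV-B3GNT3 minus young) was above 0 in 35 and below 0 in 50, with a median of -0.07 and a range of -0.80 to 0.87. By class the median was -0.36 in astrocytes, where 8 of 10 genes were below 0 (-0.02 over all genes), -0.23 in fibroblasts and -0.20 in precursors, and between -0.07 and 0 in the other 6 classes. In excitatory neurons Stmn1 differed by 0.35 ± 0.14 (SE) and Tmsb10 by -0.25 ± 0.20. In oligodendrocytes Tuba1a differed by -0.41 ± 0.22 and Actg1 by 0.31 ± 0.18. Both signs occurred widely among the pairs.

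The top 3 libraries were shared by every class. By the mean log2 CPM of the 10 genes, the 3 aged AAV-EGFP libraries took the top 3 ranks in 9 of 9 classes. Replicate 2 was first in 7 classes, replicate 3 in 2, and replicate 1 in none. Aged AAV-B3GNT3 replicate 3 was the nearest of its group, with a median rank of 4, while replicates 1 and 2 had median ranks of 9 and 8. The order of these 6 libraries differed by class, with young replicate 2 at ranks 4 to 9, for example. As a share of all UMIs of a library, the 10 genes took 0.0294, 0.0392 and 0.0436% in aged AAV-EGFP, 0.0262, 0.0230 and 0.0232% in young and 0.0260, 0.0275 and 0.0287% in aged AAV-B3GNT3 libraries. Per nucleus rather than as CPM, mean counts of aged AAV-EGFP mice were above those of young mice in 88 of 90 pairs and above those of aged AAV-B3GNT3 mice in 87.

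Ribosomal protein mRNAs, which like the members are short, spliced and abundant in the cytoplasm, moved with the same libraries. The summed level of 76 such genes was higher in all aged AAV-EGFP libraries than in any library of either group in 9 of 9 classes. In oligodendrocytes it was at 1849 to 2860 CPM in aged AAV-EGFP, 1144 to 1400 in young and 1119 to 1337 in aged AAV-B3GNT3 mice. The summed level of the 10 genes was at 855 to 1280 CPM in aged AAV-EGFP, 550 to 586 in young and 532 to 618 in aged AAV-B3GNT3 oligodendrocytes. In BECs the 10 genes summed to 2933 to 4975 CPM in aged AAV-EGFP and 1357 to 1807 in young mice, and the ribosomal genes to 7883 to 10749.5 and 3148 to 5196 CPM. Both sums were thus high in the same libraries, as plotted for each class.

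**Figure D4:**
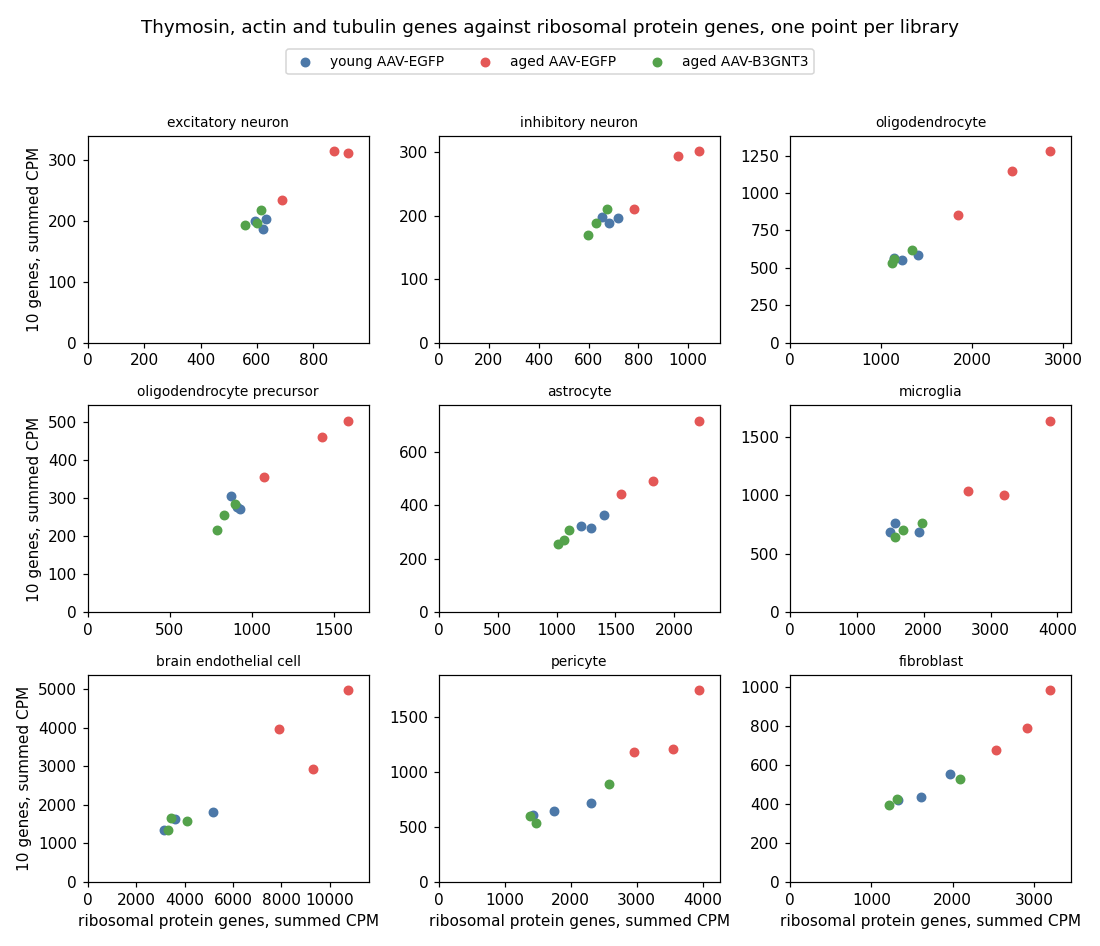
Summed level of the 10 genes (vertical axis, CPM) against the summed level of 76 ribosomal protein genes (horizontal axis, CPM), with 1 panel per class, 1 point per library and colours for the 3 groups. The aged AAV-EGFP libraries lie to the right of all others in every panel, and in oligodendrocytes the 10 genes run from 532 to 1280 CPM as the ribosomal genes run from 1119 to 2860.

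The members were also set against the ribosomal protein genes. The 10 genes summed to 46.0 ± 1.16% of the ribosomal sum in aged AAV-EGFP, 45.5 ± 3.96% in young and 47.7 ± 1.495% in aged AAV-B3GNT3 oligodendrocytes (SD, n = 3). In BECs the values were 42.7 ± 9.90%, 41.1 ± 5.601% and 42.5 ± 5.12%. In microglia they were 37.4 ± 5.51%, 43.5 ± 6.78% and 40.5 ± 1.63%, lowest in the aged AAV-EGFP group. The aged AAV-EGFP libraries were apart from the aged AAV-B3GNT3 libraries in 0 of 9 classes and from the young libraries in 2 of 9 (excitatory neurons and astrocytes), whereas the members' own sum was apart in 8 and 9. This ratio was chosen after the values were seen, it was not tested, and genes of either set may still change unequally.

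Other signs of RNA content moved as well. Nuclear long noncoding RNAs (6 genes with Malat1) were apart from aged AAV-B3GNT3 libraries in 9 of 9 classes and from young libraries in 7, on the high side. In oligodendrocytes they summed to 54178 to 61949 CPM in aged AAV-EGFP, 40565 to 47901 in young and 37913 to 40471 in aged AAV-B3GNT3 mice. Mitochondrial mRNAs (13 genes) had a higher mean in aged AAV-EGFP mice in 9 of 9 classes against both groups, with the libraries apart from young in 1 and from aged AAV-B3GNT3 in 6. Of 117 pairs of class and foreign marker list, the summed markers had all aged AAV-EGFP libraries above all young libraries in 10, above all aged AAV-B3GNT3 libraries in 9 and above both in 2. With the mitochondrial share as a covariate, 18 pairs of member and class were called with age and 8 with treatment. The part of RNA quality in the members' changes was not tested.

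Gene span moved with the changes in general. Among all genes tested that spanned under 10 kb, as all members do, the median log2 fold change with age was above 0 in every class, at 0.23 in excitatory neurons, 0.41 in oligodendrocytes and 0.94 in BECs. With treatment it was below 0 in every class, at -0.18, -0.35 and -0.91. Genes over 100 kb had medians below 0 with age, such as -0.27 in oligodendrocytes and -0.32 in microglia. The members were chosen on these contrasts, so their medians with age, 0.96 in oligodendrocytes and 1.19 in BECs without the 4 that passed the filter through the aged AAV-EGFP libraries, are set beside these values as a description. The medians by span and class are plotted.

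**Figure D5:**
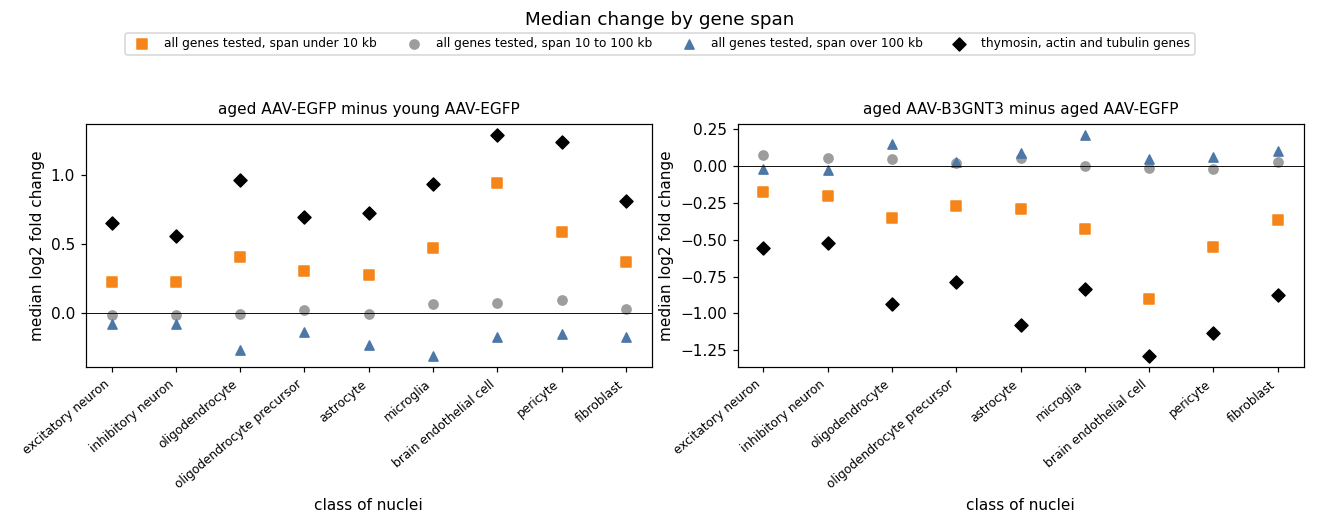
Median log2 fold change (vertical axis) by class (horizontal axis) for all genes tested, by span of the gene, and for the 10 genes (diamonds), with age on the left and with treatment on the right. Genes under 10 kb lie above 0 with age (0.22 to 0.94) and below 0 with treatment. The median of the members tested lies beyond theirs in every class, with fewer than 10 members tested in pericytes and microglia.

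Genes with related functions were counted over 62 genes in 8 lists. In oligodendrocytes, 14 of 56 tested rose and 5 fell with age, and 1 rose and 9 fell with treatment, beside medians of 0.18 and -0.15. Of all genes tested in the class, 11.1% rose and 10.3% fell with age, and 3.37% rose and 5.89% fell with treatment. Tubulins gave 4 rises of 8 with age. Tubb4b, a beta-tubulin, rose from 9.51 ± 1.07 to 22.6 ± 7.03 CPM with age (SD, n = 3, log2 fold change 1.26 ± 0.23 SE, adjusted p = 0.00353, edgeR) and fell to 9.41 CPM with treatment (adjusted p = 0.00903). Of 3 stathmins 2 rose with age, and Stmn3 fell from 86.8 ± 30.8 to 31.2 CPM with treatment (adjusted p = 0.0104). Tubb4a, a beta-tubulin abundant in myelinating cells and neurons, fell from 355 ± 24.8 to 237 CPM with treatment (adjusted p = 0.0132).

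Among actin regulators in oligodendrocytes, 4 of 17 rose and 1 fell with age. Coro1c, which binds filaments and Arp2/3, rose from 80.5 ± 18.8 to 240 ± 74.3 CPM (adjusted p = 0.00329, edgeR). Cap2, which binds actin monomers, fell from 60.2 ± 9.07 to 25.6 ± 5.07 CPM (adjusted p = 0.00209). Of 9 microtubule-associated proteins, 4 fell with age and 0 rose. Among them Map2 fell from 341 ± 29.9 to 218 ± 31.6 CPM (adjusted p = 0.00775). The free RNA estimate, made from excitatory neuron markers, averaged 26.3% in young and 18.0% in aged AAV-EGFP oligodendrocytes. The part of neuronal RNA in the falls of these genes was not tested. Of the Arp2/3 complex, which branches filaments, 2 of 10 rose with age.

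In excitatory neurons 6 of 59 related genes rose and 5 fell with age, and 0 rose and 2 fell with treatment. Of all genes tested, 7.48% rose and 6.64% fell with age, and 0.951% rose and 1.58% fell with treatment, so the counts with age were near these shares. Tubb2a, a beta-tubulin, rose from 14.1 ± 0.416 to 22.7 ± 4.45 CPM (adjusted p = 0.0152) and fell to 12.9 CPM with treatment (adjusted p = 0.0317, edgeR). Tbcc, a tubulin folding cofactor, rose with age by 1.38 ± 0.26 on the log2 scale from 0.930 CPM and fell with treatment. Map1b and Map6, which stabilize microtubules, fell with age, by 0.55 and 0.70 on the log2 scale. Dcx of the same list, named after its values were seen, rose with age by 0.47 ± 0.13 (adjusted p = 0.0377, edgeR). Coro1b, which binds actin filaments, rose from 12.4 ± 0.503 to 18.05 ± 2.06 CPM (adjusted p = 0.0175, edgeR) and was at 19.3 ± 1.98 CPM in aged AAV-B3GNT3 mice. Cap2 fell from 470 ± 12.3 to 311 ± 37.3 CPM (adjusted p = 0.00836).

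The remaining classes gave 5 rises and 4 falls with age of 54 in astrocytes, 2 and 5 of 43 in microglia, 2 and 1 of 57 in inhibitory neurons, 2 and 1 of 33 in pericytes, 2 and 2 of 48 in fibroblasts and 0 and 3 of 51 in precursors. Over all genes tested, the shares that rose and fell with age were 4.73% and 7.09% in astrocytes, 5.16% and 8.93% in microglia, 2.08% and 1.59% in inhibitory neurons, 2.53% and 2.61% in pericytes, 1.48% and 1.8% in fibroblasts, 1.32% and 1.1% in precursors and 1.64% and 0.452% in BECs. The 2 rises in microglia were near the share of all genes. With treatment 1 rose and 5 fell in astrocytes, 1 rose and 1 fell in microglia and 1 fell in fibroblasts. Over all genes the shares that rose and fell with treatment were 1.62% and 2.56% in astrocytes, 3.66% and 1.99% in microglia and 0.131% and 0.307% in fibroblasts. They were 0.0765% and 0.494% in inhibitory neurons, 0.0194% and 0.213% in precursors, 0.143% and 0.49% in pericytes and 0.0215% and 0.409% in BECs. In BECs edgeR called 0 of 32 in each comparison, with 12 and 8 at an unadjusted p under 0.05, and DESeq2 called 0. For treatment, the counts at an unadjusted p were 9 in inhibitory neurons, 7 in precursors and 10 in pericytes, where edgeR called 0 and DESeq2 called 1, 0 and 0. In microglia Map2, Dclk1, Map1b and Mapt fell with age, Map2 from 316 ± 79.4 to 118 ± 34.9 CPM (adjusted p = 0.000169, edgeR). These are genes of neuronal microtubules. With free RNA subtracted, Map2 alone of these 4 passed the filter on low counts, and its log2 fold change with age moved from -1.44 to -6.16 ± 1.06 (adjusted p = 0.00502, edgeR). The subtraction was scaled by excitatory neuron markers and set values below 0 to 0. The estimate in microglia averaged 24.8% in aged AAV-EGFP, 33.9% in young and 33.0% in aged AAV-B3GNT3 libraries. The part of neuronal RNA in the falls of these 4 genes was not tested. In astrocytes Tubb2a rose from 37.0 ± 1.38 to 79.4 ± 18.1 CPM (adjusted p = 0.00137) and Dcx fell from 17.9 ± 1.56 to 6.07 ± 1.09 CPM. The estimate in astrocytes averaged 24.3% in young and 16.8% in aged AAV-EGFP libraries, and the part of neuronal RNA in the fall of Dcx was not tested. In pericytes Coro1b, a coronin of cell edges, rose from 43.7 ± 8.70 to 244 ± 107 CPM (adjusted p = 0.0018). Over the 9 classes, 433 pairs of related gene and class were tested, of which 59 were called with age and 21 with treatment. The shares over all gene and class pairs are given above for each direction. Both counts depended on single libraries. With age they were 90, 23 and 28 without aged AAV-EGFP replicates 1, 2 and 3, and 35, 27 and 28 without young replicates 1, 2 and 3. With treatment they were 52 and 7 without aged AAV-EGFP replicates 1 and 2 and 10 without aged AAV-B3GNT3 replicate 1. Without aged AAV-B3GNT3 replicate 2, edgeR called 0 of 438 with treatment, with 78 at an unadjusted p under 0.05.

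Whether a change differed between classes was tested by limma on the difference from excitatory neurons within each library. Of the members, Actb and Actg1 passed in oligodendrocytes for age, where the change exceeded that in excitatory neurons by 0.80 ± 0.15 and 0.60 ± 0.16 on the log2 scale (SE), beside 9.31% of 12975 genes called. For treatment 3.07% of genes passed in this class. In astrocytes 4.57% passed with age and 0.429% with treatment, in microglia 9.9% and 3.49%, in pericytes 1.06% and 0%, in fibroblasts 0.75% and 0%, and in inhibitory neurons and precursors 0% in each. As the genes were chosen on these contrasts, this too is a description. Without 1 library at a time, Actb no longer passed when aged AAV-EGFP replicate 2 or 3 or young replicate 2 or 3 was left out, and Actg1 passed only when aged AAV-B3GNT3 replicate 2 was left out. In the other classes, and for treatment, limma called 0 members, with 0 to 3 of 6 to 10 at an unadjusted p under 0.05 for age and 0 to 6 for treatment. DESeq2 was not run on these differences. In BECs the members' median difference from excitatory neurons was 0.50 with age and -0.65 with treatment, and 0 of 10 passed (3 and 5 at an unadjusted p under 0.05), beside 0.0659% and 0.0439% of 4551 genes. These BEC values include Stmn1, Tmsb10, Pfn1 and Tuba1b, which passed the filter there only through the aged AAV-EGFP libraries. For these genes a larger change in BECs was built in. The same holds for such members in pericytes, precursors and microglia.

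The 10 genes varied together over libraries. In oligodendrocytes the median Pearson r over their 45 pairs was 0.88 (range 0.75 to 0.97) and in excitatory neurons 0.80 (range 0.38 to 0.98), over 9 libraries that include the group differences. The genes outside the lists whose levels were most like the members' mean in oligodendrocytes were H3f3b, a replacement histone, Eif1, a translation initiation factor, Rps3a1, Trmt112 and Rpl19, with r from 0.991 to 0.997 among 8682 candidates. In excitatory neurons they were Snu13, Eid2, Rraga, Gapdh and Psmb5, with r from 0.980 to 0.991 among 12712. These 10 genes spanned 1352 to 7074 bases. The libraries share depth and group, and the values are descriptions over 9 points.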

How the data were processed

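Nuclei of cortex and hippocampus of 9 mice were profiled by single-nucleus RNA sequencing. The deposited matrices held UMI counts per gene and barcode, made by the authors with Cell Ranger on mm10 (version 4.0.0 in the submitters' processing notes, 7.2.0 in the matrix header). No annotation of nuclei was used, so classes were rebuilt here. Barcodes were kept with 200 to 5000 genes and no more than 10% of UMIs from mitochondrial genes, and those with the highest doublet scores were removed at 0.8% per 1000 barcodes. Nuclei were clustered with scanpy 1.11.5 (2000 variable genes excluding the members and related lists, 15 principal components, 20 neighbours, resolution 0.3). A cluster was named where at least 3 markers of a list were at 2 times the median cluster and in 10% of nuclei. A cluster named inhibitory was left unnamed where 10% or more of nuclei held a glutamate transporter, a choice made after the data were seen. Excitatory clusters had no such limit on Gad1 or Gad2, which up to 35.9% of nuclei held in 1 of them (led by Dsp and Slit1), and leaving it out changed no count of member calls. Lists for smooth muscle cells, macrophages, T cells and ependymal cells named no cluster. Choroid plexus epithelial cells were named and not tested, with too few nuclei.

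Counts were summed per library and class and fitted over all genes of a class with edgeR 4.0.16 (quasi-likelihood test, TMM, filterByExpr with a minimum count of 10, R 4.3.3), with all 9 libraries in 1 fit and Benjamini-Hochberg adjustment. Contrasts were aged AAV-EGFP minus young AAV-EGFP (age) and aged AAV-B3GNT3 minus aged AAV-EGFP (treatment). Class differences were tested with limma 3.58.1 on log2 CPM with a prior count of 2. Alternatives were DESeq2 1.42.0, RLE scaling, no filter on low counts, other nucleus filters, finer clusters, covariates, subtraction of a free RNA estimate, a replicate block and leaving out each library. The members and lists were chosen with earlier results of these data known. All members are named, and related genes only where called, at most 6 per class and comparison by adjusted p. Each library is 1 mouse, and libraries of a group differed by more than counting noise (chi-square per degree of freedom 10.0 to 31.5).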

Additional observations from a re-analysis of the deposited data

Results flagged for a closer look

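The results given here are differences between classes of nuclei under the same contrast. For each gene of the 10 and of the related lists, the log2 change in a class minus the change in excitatory neurons was tested by limma within libraries, and those that passed (adjusted p under 0.05) are listed, also where a gene lies outside the naming rule. Such genes are named because they passed, after their values were seen. The share of all genes that passed in each class is given above with the class differences.

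In oligodendrocytes with age, Actb exceeded excitatory neurons by 0.80 and Actg1 by 0.60. Larger positive differences were found for Coro1c (1.82) and Wdr1 (1.58), which act in filament turnover, and for Srf (1.46), the transcription factor of many actin genes. Arpc5l, a subunit of the Arp2/3 complex, differed by 0.54. Negative differences were found for the microtubule-associated genes Dcx (-1.54) and Dclk1 (-0.59) and for Actr3b (-0.83). The part of neuronal RNA in these negative differences was not tested. In this class 7 of 56 related genes and 2 of 10 members passed, beside the share of all genes given above.

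In astrocytes with age, Wdr1 differed by 1.38, Srf by 0.85 and Dcx by -1.95 from excitatory neurons. For Dcx the part of neuronal RNA was not tested. There 3 of 54 related genes and 0 of 10 members (limma, 1 at an unadjusted p under 0.05) passed, near the share of all genes. With treatment, Srf differed by -1.14 in astrocytes, and it was the 1 gene of these lists that passed for treatment in any class. That count was 0 (limma) without aged AAV-EGFP replicate 2, where 52 had an unadjusted p under 0.05, or replicate 3 (82), without aged AAV-B3GNT3 replicate 2 (53) or replicate 3 (74), and without young replicate 1 (76), 2 (82) or 3 (83), and it was 4 without aged AAV-EGFP replicate 1.

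In microglia with age, Coro1c differed by 1.38 and Arpc5l by 1.01, while Map2 (-1.13), Dclk1 (-1.08) and Mapt (-1.04) moved the other way. The part of neuronal RNA in the negative differences was not tested. There 5 of 43 related genes and 0 of 9 members (limma, 1 at an unadjusted p under 0.05) passed, near the share of all genes. In pericytes Coro1b differed by 1.64, and in fibroblasts Actr3b differed by -1.60. With age 19 of 448 differences tested passed in all, and without aged AAV-EGFP replicate 2 or replicate 3 the number was 6. It was 9 without aged AAV-B3GNT3 replicate 1, and 9, 5 and 5 without young replicates 1, 2 and 3.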

How the results depend on the processing

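On the log2 scale no change of a member that was called reversed its sign under the settings run. Among changes not called, 15 values turned, in 4 pairs of gene and class, with sizes of up to 0.273: Tubb5 in microglia in both comparisons, Tuba1b in fibroblasts, Tubb5 in astrocytes and Pfn1 in excitatory neurons. Of 756 values of the called member changes under settings that kept all libraries, 747 moved by less than the spread between libraries and 9 moved more, and of 567 values with 1 library left out, 560 and 7 did. Counts of calls were less stable, and the causes were not tested. Member calls (34 with age, 29 with treatment) were 18 and 8 with the mitochondrial share as a covariate and 13 and 8 with free RNA subtracted. Related calls (59 and 21) were 29 and 2, and 21 and 4, under these settings, and 38 with age without doublet removal. With treatment they were 41 without the filter on low counts and 12 with only the groups compared in the fit. Class differences (19 and 1) were 1 and 0 with free RNA subtracted, 2 and 0 without the filter and 6 and 0 without doublet removal, and for treatment 0 with the mitochondrial share, without an upper limit on genes and at a prior count of 0.5 (limma). DESeq2 called 34 and 40 members, and normalization by RLE size factors gave 32 and 29.

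With 1 library left out, member calls ranged from 13 to 50 with age and from 4 to 52 with treatment, related calls from 23 to 90 and from 0 to 52, and class differences from 5 to 23 and from 0 to 4. The median change of the members ranged from 0.68 to 0.92 with age and from -1.01 to -0.70 with treatment.

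Replicate numbers occur in every group, and the deviations of libraries of the same number were compared. Their correlations were -0.32 to 0.34 in excitatory neurons and -0.16 to 0.23 in oligodendrocytes, and 3 of 9 in each were above 0.1. With the replicate number as a block, member calls were 31 and 29, related calls 51 and 19, and class differences 8 and 0.

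Depth limits BECs and pericytes most, with 142236 to 315144 and 94589 to 320635 UMIs per library, and then microglia (259849 to 541352) and fibroblasts (226575 to 926661). No labels gave a batch, so batch and group cannot be told apart.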
